A study of Homo sapiens with 2 samples.

Results

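Sulfatide and glycosphingolipid enzymes were described through 8 genes, GAL3ST1, UGT8, ARSA, GALC, UGCG, ST3GAL5, B4GALNT1 and A4GALT. Their members were the probe sets, groups of array probes read out as a single value, that a platform annotation assigned to exactly 1 of these symbols. There were 14 such probe sets among 54613 on the array, and the 8 genes were among 19775 with a single-gene probe set. The genes were chosen by name with earlier results of these data known, so their differences are a description. Expression was measured on 2 Affymetrix arrays from total RNA, with biotin as the label, 1 array for 786-O and 1 for 786-VHL. 786-O is a human clear-cell renal carcinoma line whose VHL gene is mutated, and 786-VHL is a line derived from it that holds a functional VHL allele. Both lines share the genetic background of 786-O, and whether 786-VHL is a clone or a pool, and which vector carried VHL, is not given in the sources used here. With 1 array per line there is no replicate check of any value, no test and no p-value.

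Glycosphingolipids are membrane lipids in which sugars are attached to ceramide. In the galactose branch, UGT8 adds galactose to ceramide, and GAL3ST1 then adds a sulfate to give sulfatide, a lipid abundant in myelin and in the kidney tubule. In the lysosome ARSA removes that sulfate and GALC removes the galactose. In the glucose branch, UGCG makes glucosylceramide, which is extended to lactosylceramide, and from there A4GALT starts the globo-series, ST3GAL5 makes the ganglioside GM3, and B4GALNT1 makes more complex gangliosides. Raised sulfatide and raised activity of its sulfotransferase have been described in renal cell carcinoma.

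Values are deposited intensities in arbitrary units on a linear scale. Differences are log2(intensity + 16) of 786-VHL minus that of 786-O, so a positive difference is a higher value on the array labelled 786-VHL, and folds were taken on the same scale, where the differences of dim probe sets are understated. A probe set was called measured where its higher value exceeded a floor of 22.3, the median of all values of both arrays. VHL itself gave no support to the labels. Its brighter probe set read 28.85 in 786-O and 15.96 in 786-VHL, lower on the array labelled as holding the functional allele, though close to or below the floor. Its other probe set read 6.32 and 7.96, below the floor on both arrays. Where these probes lie relative to the introduced VHL sequence is not known here. No other gene was read here as a check of the labels. Each direction is therefore taken from the array labels alone, and 786-VHL stands throughout for the array that carries that label. All 9 kidney epithelial line markers, PAX8 and KRT18 among them, were above the floor on both arrays. Of 3 leukocyte markers on the array 0 were measured, and the summed intensity of the 3 was 44.7 in 786-O and 45.8 in 786-VHL. Of 4 oligodendrocyte and Schwann cell markers 3 were measured, led by MBP at 284 and 362, while MOG was below the floor, and their sums were 385 and 473. Of 4 endothelial markers 2 were measured, PECAM1 at 21.1 in 786-O and 26.7 in 786-VHL and VWF at 19.9 and 28.9, above the floor in 786-VHL only, and the 4 summed to 62.9 and 79.8. Of 4 fibroblast markers 2 were measured. COL1A1 read 94.8 and 79.9, LUM read 5.64 and 37.1, the former below the floor, and the 4 summed to 127 and 147. The part of these markers in the differences below was not tested.

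Because the study turned on VHL, which targets HIF transcription factors for destruction, the promoters of the members were examined for the core of the HIF binding motif. RefSeq windows (GRCh38.p14) were found for 6 of the 8 genes, all but ARSA and B4GALNT1. For each, the 250 bases before the start site farthest upstream were searched for ACGTG and GCGTG on both strands, read on the other strand as CACGT and CACGC. The letters of CACGTG hold ACGTG on both strands and count as 2 matches. The sequences below belong to the gene with the largest difference, the member with the next largest, the enzyme that makes the substrate of GAL3ST1, and the enzyme that opens the glucose branch. They run 5′ to 3′ on the strand of the gene, with matches in capitals.

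GAL3ST1: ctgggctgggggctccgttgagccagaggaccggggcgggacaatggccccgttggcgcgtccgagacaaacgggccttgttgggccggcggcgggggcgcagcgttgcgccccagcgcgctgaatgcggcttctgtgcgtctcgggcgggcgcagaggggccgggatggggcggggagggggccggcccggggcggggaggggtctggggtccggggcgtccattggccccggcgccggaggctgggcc
ST3GAL5: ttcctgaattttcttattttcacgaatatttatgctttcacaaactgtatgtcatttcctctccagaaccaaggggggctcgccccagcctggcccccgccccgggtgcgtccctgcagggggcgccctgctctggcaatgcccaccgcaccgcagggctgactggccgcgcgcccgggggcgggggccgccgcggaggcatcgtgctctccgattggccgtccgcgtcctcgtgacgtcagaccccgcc
UGT8: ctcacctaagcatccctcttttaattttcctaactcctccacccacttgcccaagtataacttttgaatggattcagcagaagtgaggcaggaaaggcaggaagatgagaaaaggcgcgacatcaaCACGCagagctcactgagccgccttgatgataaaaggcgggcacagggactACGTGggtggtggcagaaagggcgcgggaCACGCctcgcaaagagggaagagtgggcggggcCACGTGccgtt
UGCG: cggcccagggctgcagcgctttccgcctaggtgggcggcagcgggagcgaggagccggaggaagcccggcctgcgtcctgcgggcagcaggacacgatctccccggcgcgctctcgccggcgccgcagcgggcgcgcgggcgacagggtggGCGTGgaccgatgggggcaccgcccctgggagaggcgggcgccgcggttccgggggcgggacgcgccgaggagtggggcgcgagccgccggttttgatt

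The window of GAL3ST1 lies at chr22:30574666-30574915 on the minus strand, that of ST3GAL5 at chr2:85889035-85889284 on the minus strand, that of UGT8 at chr4:114598152-114598401 on the plus strand, and that of UGCG at chr9:111896564-111896813 on the plus strand. These letters are not in the windows of GAL3ST1 and ST3GAL5, nor in those of A4GALT and GALC. UGT8 held 5 matches, the CACGTG that counts as 2 starting 11 bases before the start site, and UGCG held 1. Among 27305 genes with a window, 43.1% held at least 1 match and 1.37% held 5 or more. Over all windows of a gene, including those at other start sites, 0 of 3 for GAL3ST1, 0 of 2 for A4GALT, 1 of 1 for UGCG, 2 of 3 for UGT8, 2 of 4 for GALC and 2 of 5 for ST3GAL5 held a match, against 43.2% of 35116 windows in the table. A match is a description of letters and not of a bound site. A window without a match says nothing of sequence outside it, which was not searched.

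Of the 14 probe sets 11 were measured, all of them above the floor on both arrays, and 3 were below it on both, a pair for GALC and 1 for B4GALNT1. Of the 11, 1 was at least 2-fold higher in 786-VHL and 0 at least 2-fold lower. Over the 24414 measured single-gene probe sets the shares were 1.42% at least 2-fold higher and 2.7% at least 2-fold lower, 4.11% together. By sign 8 of the 11 were higher in 786-VHL and 3 lower, and 54.5% of all measured single-gene probe sets were higher. Their median difference was 0.20, beside 0.04 over all measured single-gene probe sets. These members were chosen with results in view, and nothing is read from that share. By a 1.5-fold rule 2 of the 11 were higher and 1 lower, where the shares over all were 6.25% and 7.91%, 14.2% together. Error could be read only from how far the probe sets of the same gene disagreed, with an SD of 0.328 log2 units over 6436 genes that had several measured ones. That SD says nothing of the variation among arrays or cultures.

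**Figure D1:**
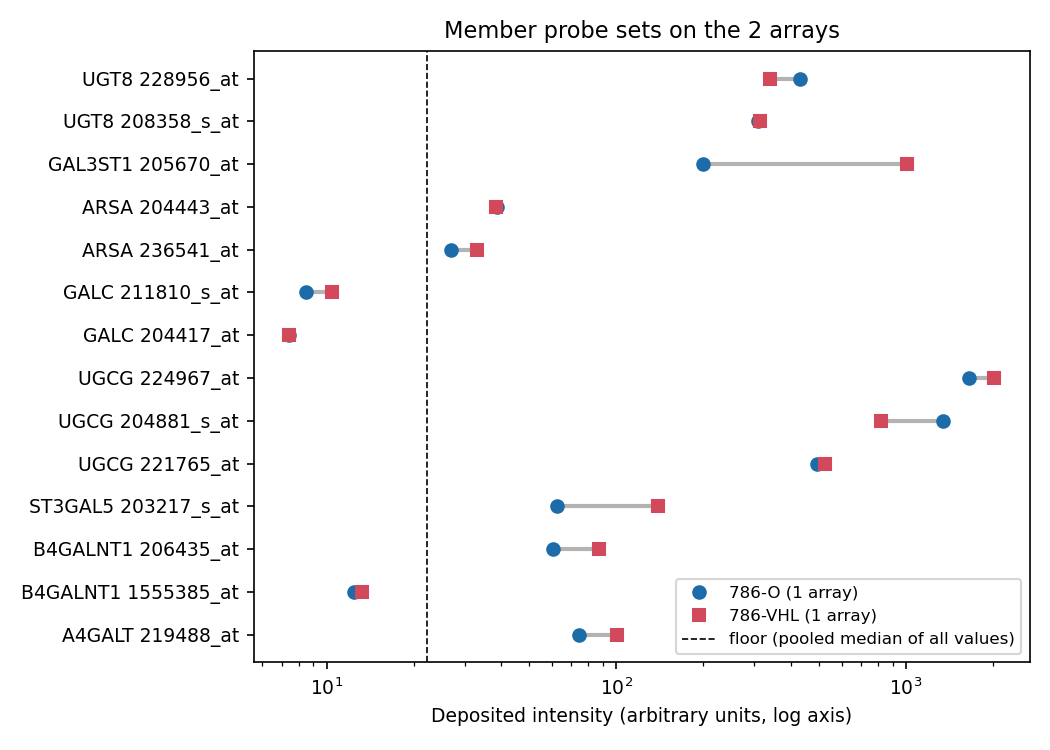
Deposited intensity (arbitrary units, log axis) of each of the 14 member probe sets on the 786-O array (circles) and the 786-VHL array (squares), joined by a grey line, with the floor of 22.3 dashed. GAL3ST1 has the longest line, from 199 to 1008, and both GALC probe sets lie left of the floor.

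GAL3ST1, the cerebroside sulfotransferase that completes sulfatide, differed most. Its single probe set, 205670_at, read 199 in 786-O and 1008 in 786-VHL. This was 4.77-fold higher on the array labelled 786-VHL, a log2 difference of 2.25. Both values were far above the floor, and the mean of the probe set was above that of 90.6% of all probe sets. Among measured single-gene probe sets 93 of 24414 (0.381%) were farther apart in either direction and 28 had a higher positive difference. Over the alternatives for scaling, filter and pseudocount the difference ranged from 2.03 to 2.34. The gene spans chr22:30554635-30574665 on GRCh38.p14. Of the 10 nearest measured genes, 5 on each side, 0 were 2-fold apart, and their differences ranged from -0.22 to 0.54 with a median of 0.10. With 1 probe set there was no second reading of GAL3ST1 within an array.

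The step before GAL3ST1 was read by more than a single probe set. UGT8, the galactosyltransferase that makes the galactosylceramide which GAL3ST1 sulfates, had 2 measured probe sets. The brighter, 228956_at, read 431 in 786-O and 341 in 786-VHL, a difference of -0.32. The other, 208358_s_at, read 309 and 313, a difference of 0.02 that turned to -0.03 with the intensity trend removed. The probe sets were 0.34 apart, and 31.8% of 3585 genes with 2 measured probe sets had a wider range. The gene lies at chr4:114598402-114678225, and 8 of the 10 nearest measured genes were lower in 786-VHL, with a median of -0.25, where 56.8% of all measured genes were higher.

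Of the lysosomal enzymes that take sulfatide apart, ARSA was measured and GALC was not. ARSA, the sulfatase whose loss causes metachromatic leukodystrophy, read 38.8 in 786-O and 38.3 in 786-VHL on 204443_at, a difference of -0.01. On 236541_at it read 26.9 and 33.2, a difference of 0.20. These values lay just above the floor, and the difference on 236541_at ranged from 0.10 with a pseudocount of 64 to 0.29 with a pseudocount of 1. GALC, the galactosylceramidase that is deficient in Krabbe disease, read 8.52 in 786-O and 10.4 in 786-VHL on 211810_s_at. On 204417_at it read 7.41 on both arrays. Both probe sets were below the floor, so no fold is given. ARSA lies at chr22:50622754-50628152 and GALC at chr14:87933014-87993667.

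In the glucose branch the probe sets of UGCG, the glucosylceramide synthase, pointed different ways. The brightest, 224967_at, read 1655 in 786-O and 2024 in 786-VHL, a difference of 0.29. The probe set 204881_s_at read 1348 and 820, 1.63-fold lower in 786-VHL with a difference of -0.71. The third, 221765_at, read 492 and 526, a difference of 0.09. Thus 2 of 3 readings were slightly higher and 1 was lower, and the signs held under each scaling, filter and pseudocount tried. The range of 0.99 between them was wider than in most genes with 3 measured probe sets. The median range of 1712 such genes was 0.39, and 7.89% had a wider one. The gene lies at chr9:111896814-111935369. Of its 10 nearest measured genes 8 were higher in 786-VHL, 1 of them at least 2-fold, with a median of 0.36. No direction is given for UGCG as a whole.

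ST3GAL5, the sialyltransferase that makes GM3, was the member with the next largest difference after GAL3ST1. Its single probe set, 203217_s_at, read 62.2 in 786-O and 139 in 786-VHL, a difference of 0.99 or 1.98-fold, just under the 2-fold rule. It passed that rule with quantile normalization and with a pseudocount of 1, where the difference was 1.15, and was 0.69 with a pseudocount of 64. Of measured single-gene probe sets 4.29% were farther apart. The gene lies at chr2:85837120-85889034, and the 10 nearest measured genes ranged from -0.14 to 0.41.

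The other branching enzymes differed less. B4GALNT1, which adds the N-acetylgalactosamine of GM2 and GD2, read 60.4 in 786-O and 87.3 in 786-VHL on 206435_at, a difference of 0.44. Its other probe set, 1555385_at, was below the floor at 12.4 and 13.2. A4GALT, the synthase of globotriaosylceramide, read 74.7 in 786-O and 101 in 786-VHL on 219488_at, a difference of 0.36. Both differences were close in size to the SD of 0.328 among probe sets, and 23.8% and 30.5% of measured single-gene probe sets were farther apart. B4GALNT1 lies at chr12:57623409-57633201 and A4GALT at chr22:42692121-42721301. Of the 10 nearest measured genes of A4GALT 7 were higher, 1 of them at least 2-fold, with a median of 0.14. Of those of B4GALNT1 6 were higher and 0 were 2-fold apart.

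**Figure D2:**
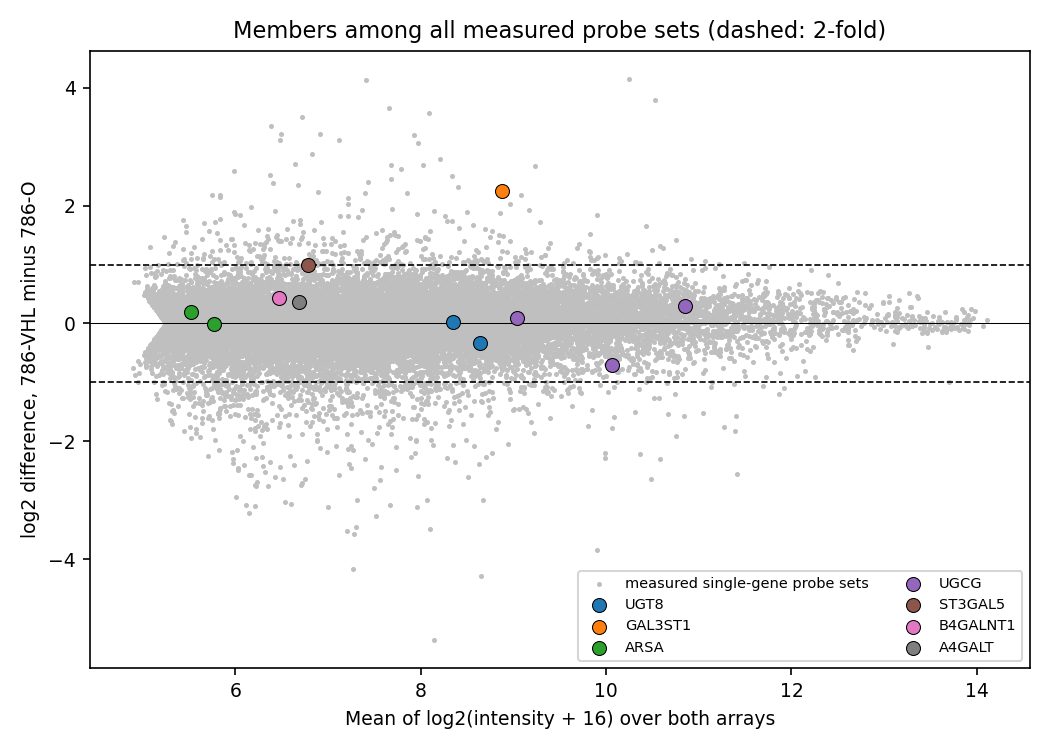
Log2 difference of 786-VHL minus 786-O against the mean log2(intensity + 16) for the 24414 measured single-gene probe sets (grey) and the 11 measured member probe sets (coloured by gene), with 2-fold dashed. GAL3ST1 stands alone among the members at 2.25, ST3GAL5 lies at the upper 2-fold line at 0.99, and UGCG has points on both sides of 0.

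The genes around the members were read through 6 lists, with a gene represented by its brightest single-gene probe set. Of 84 genes with a value 72 were measured, 1 of them at least 2-fold higher in 786-VHL and 3 at least 2-fold lower. That is 5.56%, beside 3.72% of the 13291 measured genes, of which 1.54% were higher and 2.18% lower. By the same representation 7 of the 8 members were measured, with a median difference of 0.36 beside 0.05 over all measured genes. The median of the 72 was -0.04.

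Ceramide synthesis, which feeds both branches, had 9 of 12 measured genes lower in 786-VHL and 3 higher, with a median of -0.21. Over all 13291 measured genes 56.8% were higher in 786-VHL. KDSR, the reductase of ketosphinganine early in the pathway, was 2.18-fold lower, at 300 in 786-O and 129 in 786-VHL. Its other measured probe sets differed by -1.29 and -1.03. No gene of the list was at least 2-fold higher. The median was -0.42 with the median over the probe sets of each gene and -0.10 with no filter on low values.

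Among 13 measured genes that extend or cap glycosphingolipid chains 7 were higher and 6 lower, with a median of 0.15. ST6GALNAC5, a sialyltransferase that acts on gangliosides, read 97.5 in 786-O and 7.84 in 786-VHL, the latter below the floor, and was at least 2.96-fold lower with that array set to the floor. Its other measured probe set differed by -1.04. B3GALT5, a galactosyltransferase that can extend the globo-series, was 2.07-fold higher, at 58.5 in 786-O and 138 in 786-VHL, and its other measured probe set differed by 1.26. B4GALT5, which makes lactosylceramide from the product of UGCG, differed by -0.17, and by -0.23 on its other measured probe set. Its relative B4GALT6 differed by -0.30 on its brightest probe set, while its other measured ones ranged from 0.01 to 0.46.

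Lysosomal breakdown genes had a median of 0.08 over 10 measured, 7 higher and 3 lower, and 0 were 2-fold apart. SUMF1, which activates ARSA and other sulfatases by modifying their catalytic cysteine, read 642 in 786-O and 343 in 786-VHL, a difference of -0.88. PSAP, the precursor of the saposins that present sulfatide to ARSA, read 3063 and 2186, a difference of -0.48, and -0.41 on its other measured probe set.

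Donor supply, read by brightest probe sets, showed small differences in both directions, with a median of 0.05 over 14 measured genes and 0 that were 2-fold apart. SLC26A2 of this list differed by -0.44 on its brightest probe set, and by -0.44 and -2.28 on its other measured ones. GALT, which acts in galactose use, differed by -0.48 and UGDH, which oxidises UDP-glucose, by 0.47. PAPSS1 and PAPSS2, the synthases of the sulfate donor that GAL3ST1 uses, differed by 0.33 and -0.25, and the other measured probe sets of PAPSS2 ranged from -0.17 to 0.21. SLC26A2, PAPSS1 and PAPSS2 were named after their values were seen.

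Sphingomyelin, ceramide transport and S1P genes had a median of -0.19 over 15 measured, 5 higher and 10 lower by their brightest probe sets. Other probe sets could have the opposite sign. SGPP2 differed by 0.42 on its brightest and from -1.48 to -0.14 on its other measured ones. SGMS2 differed by -0.43 on its brightest and from 0.11 to 0.24 on its others. ACER3, an alkaline ceramidase, was 2.37-fold lower, at 229 in 786-O and 87.5 in 786-VHL, but its other 3 measured probe sets ranged from -1.11 to -0.17. Paralogs of the sulfotransferase and the sulfatase had a median of -0.11 over 8 measured genes, and 0 were 2-fold apart. The list was partial. Of measured paralogs outside it, ARSL differed by 0.59. ARSD differed by 0.125 on its brightest probe set and from -0.52 to 0.08 on its others. The steroid sulfatase gene STS differed by -0.65, and by -0.40 and -0.03 on its other 2 measured probe sets. ARSJ differed by -0.41, while GAL3ST2 read 46.7 in 786-O and 41.3 in 786-VHL.

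**Figure D3:**
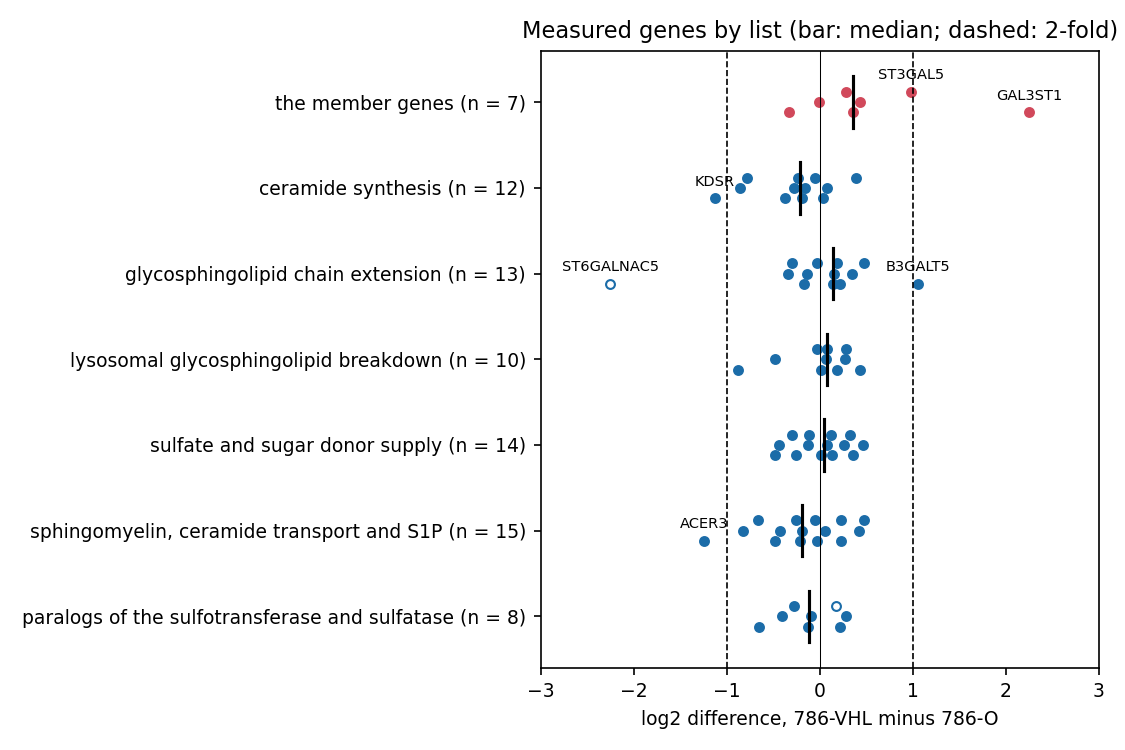
Log2 difference of 786-VHL minus 786-O for each measured gene, by list, with the median as a bar and 2-fold dashed; open circles are genes below the floor on 1 array, whose plotted difference depends on the pseudocount. GAL3ST1 lies farthest right at 2.25 and the open circle of ST6GALNAC5, at least 2.96-fold lower, farthest left, and 9 of the 12 ceramide synthesis genes lie left of 0.

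**Figure D4:**
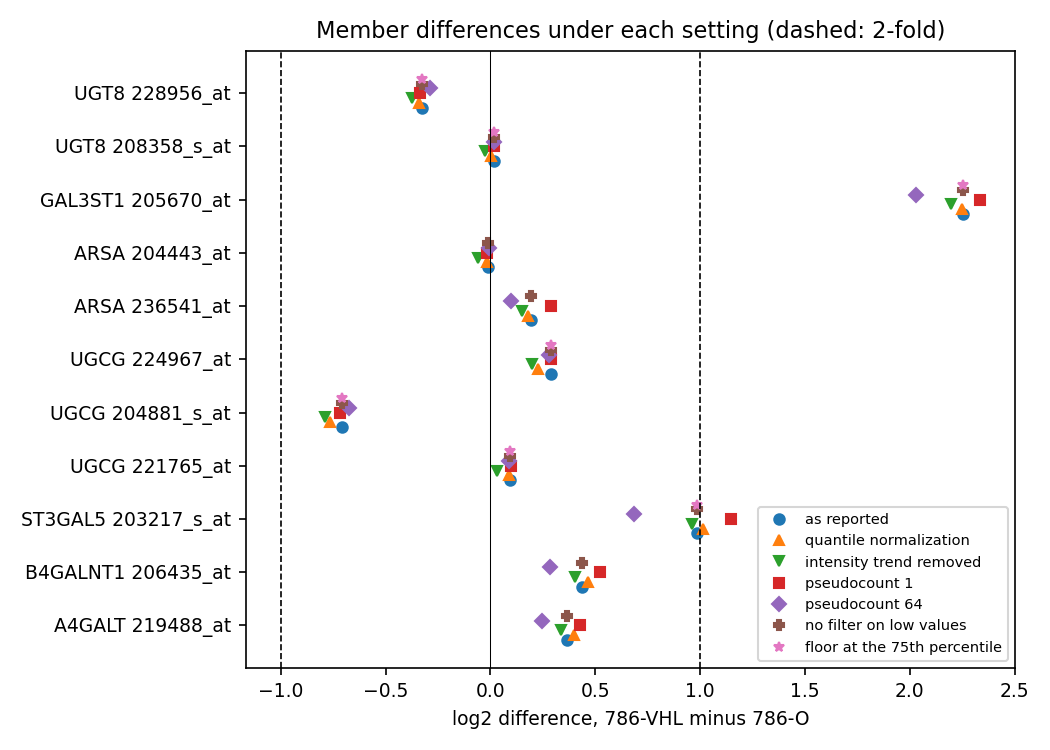
Log2 difference of each of the 11 measured member probe sets as reported and under 6 alternatives for scaling, filter and pseudocount (a filter that removes a probe set leaves no point), with 2-fold dashed. GAL3ST1 stays between 2.03 and 2.34, and ST3GAL5 lies on either side of the 2-fold line, from 0.69 to 1.15.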

How the data were processed

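Total RNA of 786-O and 786-VHL was isolated with Trizol according to the labels' protocols, and 1 array was run per line. The authors deposited intensities, linear by their range. The submitters' processing notes name R 2.10 and nothing else. Background correction, normalization and probe summary are therefore unknown here and could compress or shift differences. The number of arrays limits precision.

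From these intensities log2(value + 16) was taken. Of 54613 probe sets, 41091 had a single gene in the platform annotation, 1801 several and 11721 none here. Symbols were updated by Entrez number for 41037. A gene was represented by its probe set with the highest mean log2. Members and lists were chosen with earlier results of these data known. All member probe sets are described, and from each list the genes at least 2-fold apart, or otherwise the 2 with the largest difference. Outside that rule B4GALT5, B4GALT6, SLC26A2, PAPSS1, PAPSS2, SGPP2, SGMS2, GAL3ST2, ARSL and ARSD were also named, as were the genes under other observations. Likeness of pattern was not computed. Alternatives were quantile normalization, trend removal by lowess, pseudocounts of 1 and 64, no filter, a floor at the 75th percentile, a 1.5-fold rule, the median over probe sets, and unsuffixed probe sets (no _s_at, _x_at or _a_at). The procedure was run on simulated data, with differences planted on the same log2 scale in bright probe sets. The simulated noise was the SD between probe sets of a gene. The run therefore checks the arithmetic only, and says nothing of dim probe sets or of variation among arrays or cultures. Python 3.11.15 was used, with matplotlib 3.10.9, statsmodels 0.14.6, pandas 2.3.3 and numpy 2.4.6.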

Additional observations from a re-analysis of the deposited data

How the results depend on the processing

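No paired analysis was possible because the lines were measured on 1 array each, so no replicate could be left out either. All 65 alternative values of member probe sets moved by less than the SD between probe sets of a gene, as did all 48 list medians and all 13 member gene values. Every reported list median was smaller than that SD, so a median could change sign and still count as unmoved. That of ceramide synthesis went from -0.21 to -0.42 with the median over probe sets. A change of filter cannot move the difference of a probe set, so those alternatives had to stay the same. Likewise the gene value of a member with 1 measured probe set could not move. Only UGCG, UGT8 and ARSA had more, and their values moved only with the median over probe sets, their brightest being unsuffixed. The donor supply median still changed sign, to -0.01 with the intensity trend removed, -0.08 over the median of probe sets and -0.05 over unsuffixed probe sets, and that of the paralogs did, to 0.03 with no filter and 0.09 over 2 genes with the higher floor. The number of member probe sets at least 2-fold apart, 1 as reported, was 2 with quantile normalization and 2 with a pseudocount of 1, where ST3GAL5 joined GAL3ST1, and 3 with a 1.5-fold rule, where 204881_s_at of UGCG was added as lower. A pseudocount of 64, which shrinks dim probe sets, left 447 of all measured single-gene probe sets at least 2-fold apart and 1 of the list genes. The 1.5-fold rule gave 3457 and 10, of which 1 list gene was higher and 9 lower in 786-VHL. Where a probe set is near the floor, as both of ARSA are, signal limits what can be seen.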

Other observations

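The sulfate transporter gene SLC26A2, a plasma membrane entry point for the sulfate used in sulfation, read 1617 in 786-O and 1189 in 786-VHL on its brightest probe set, a difference of -0.44. Its other 2 measured probe sets differed by -0.44 and -2.28, so that 1 reading of the 3 was far lower in 786-VHL. Among genes of ceramide handling, the brightest probe set of GLTP, a glycolipid transfer protein, differed by -0.25 and its other measured one by -1.40. ORMDL3, a regulator of the enzyme that starts sphingolipid synthesis, differed by -0.28 and -1.80 on its measured probe sets. The ceramide synthase genes CERS5 and CERS6 differed by -0.79 and -0.86, and other measured probe sets of CERS6 ranged from -1.12 to -0.47. All of these readings were lower in 786-VHL, but other genes of the lists had higher ones. ASAH1, of the lysosomal list, differed by -0.03 on its brightest probe set and from -0.06 to 0.94 on its others. SPTLC1, of the ceramide synthesis list, differed by 0.08 on its brightest and from -0.09 to 0.57 on its others. The genes of this paragraph were chosen after their values were seen.

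The deposited decimals held a pattern. On 2127 probe sets (3.89%) the values of the 2 arrays were identical as deposited, with a median intensity of 10.6, and 204417_at of GALC was 1 of them. The fractional part 0.4569, counted after removing multiples of 0.5 and rounded to 4 decimals, was shared by 1522 values in 786-O and 1521 in 786-VHL, and by both arrays on 1408 probe sets. Among the members only 228956_at of UGT8 had it, and its values were exactly 90.0 intensity units apart, to the 6 decimals compared. Genes of the lists had it too. Among them were ST6GALNAC5 in 786-O, B3GALT5 in 786-VHL, and PSAP on both arrays. What made this pattern was not tested.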
